A study of Mus musculus with 13 samples.

Results

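Glucocorticoid receptor (GR) binding was examined at the colony-stimulating factor genes Csf1, Csf2 and Csf3 in mouse embryonic fibroblasts, a culture of connective tissue cells, by chromatin immunoprecipitation and sequencing (ChIP-seq). The genes were chosen by name, and their peaks were taken by gene symbol from 7 deposited peak lists in which 8726 symbols occurred. Of the 3 genes, 2 occurred there (Csf1 and Csf3), with 27 of 26052 peaks between them. Fibroblasts were grown for 7 days from male C57BL/6 embryos of day 13.5 whose head and inner organs had been taken out, and 13 libraries were made. The synthetic GR ligand dexamethasone (Dex, 1 µM, 16 h) together with lipopolysaccharide (LPS, which mimics a bacterial infection; labelled 100 ng/µl, 3 h) was given to cells with wild-type GR (GR wt / wt, 3 libraries), with a zinc finger mutation of its DNA-binding domain (GR Zn / Zn, 4 libraries) or without GR (GRKO/KO, 2 libraries). Dex alone, at the same dose and time, was given to wild-type cells (2 libraries) and GR Zn / Zn cells (2 libraries).

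Colony-stimulating factors are secreted glycoproteins that keep myeloid cells alive and make them divide and mature. Csf1 (M-CSF) acts on monocytes, macrophages and osteoclasts through the receptor Csf1r and is made by fibroblasts and other stromal cells, Csf2 (GM-CSF) acts on granulocytes and macrophages, and Csf3 (G-CSF) acts on neutrophils. Inflammatory signals such as LPS switch these genes on through NF-kB and AP-1 factors, and glucocorticoids are known to hold many cytokine genes down. GR can bind DNA directly at a palindromic element or reach chromatin together with other factors.

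The Dex+LPS data were 3 merged lists of peaks, each peak 200 bp wide, from which peaks of the knockout cells had been removed. Peaks specific to wild-type cells numbered 18953, those specific to the mutant 2187 and those common to both (shared) 3533, so 22486 peaks formed the wild-type list and 5720 the mutant list. Merged lists carry no spread between libraries, hence the Dex+LPS values below are descriptions without a test. Peaks give neither RNA levels nor the amount of receptor on a site. Fibroblast markers had peaks in 10 of 10 genes, from 1 at Pdgfra to 14 at Col3a1, a fibrillar collagen. Macrophage markers had peaks in 4 of 10, namely Adgre1 (1 mutant-specific), Cd68 (2 mutant-specific), Mrc1 (1 shared) and Spi1 (1 wild-type-specific). Ptprc, Itgam, Lyz2, Cx3cr1, Cd14 and Tyrobp had none. Endothelial markers had a peak in 4 of 4 genes, the largest number being 4 at Kdr. Such counts do not measure which cells were in the cultures.

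The 3 genes differed widely in the number of GR peaks under Dex+LPS. At Csf1 there were 12 peaks specific to wild-type cells, 5 specific to the mutant and 9 shared. Csf3 had 1 wild-type-specific peak and no other, and Csf2 had no peak in any class. A wild-type-specific peak was thus found at 2 of the 3 genes, against 30.6% of 21887 protein-coding genes. A shared peak was found at 1 of 3, against 9.37%, and a mutant-specific peak at 1 of 3, against 5.36%. With 3 genes these shares cannot be read as a property of the family.

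Csf1 (chromosome 3, 107741048 to 107760469, minus strand, 19.4 kb, mm10) stood high among all genes by number of peaks. Its 26 peaks were exceeded at 20 of the 8636 genes with a Dex+LPS peak and equalled at 2, while the median gene had 2. In the mutant list Csf1 had 14 peaks, and 9 of 3194 genes had more. In the wild-type list it had 21, and 23 of 8294 genes had more. The ratio of wild-type to mutant peaks was 1.5 at Csf1 and 3.93 over all genes.

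**Figure D1:**
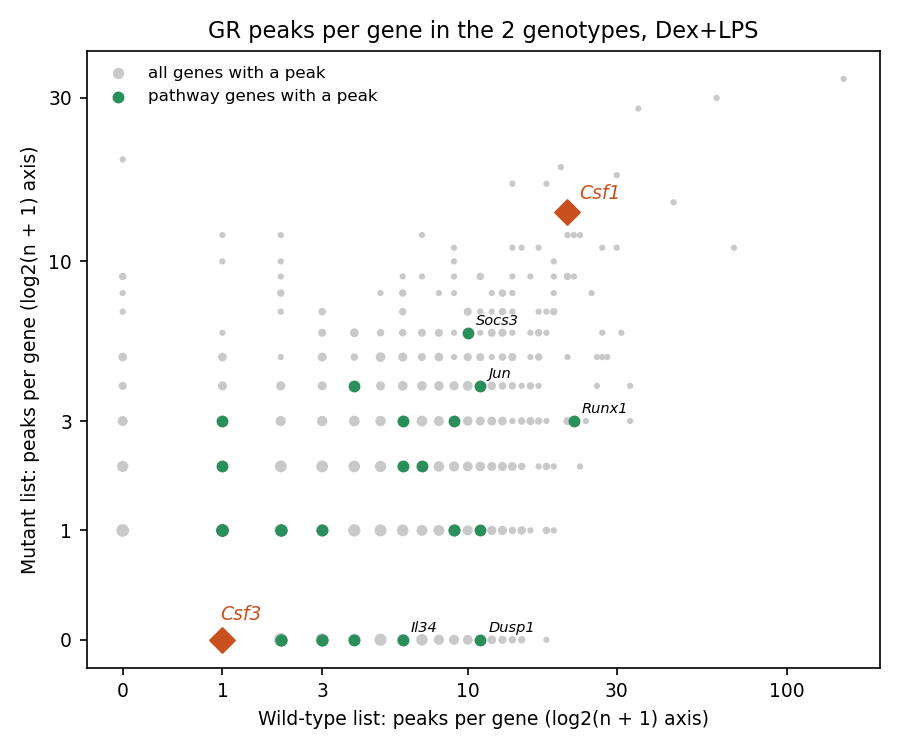
Peaks per gene in the wild-type list (horizontal) and in the mutant list (vertical) under Dex+LPS, both as counts on a log2(n + 1) axis. Grey points are all genes with a peak, larger where more genes coincide, green points are pathway genes, and diamonds mark Csf1 (21 and 14 peaks) and Csf3 (1 and 0 peaks), while Csf2 has no peak and is not drawn.

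The share of Csf1 wild-type peaks that the mutant list also held was 42.9% (9 of 21, 95% interval 21.8 to 66.0%). Over all wild-type peaks it was 15.7%. Peaks of 1 gene are not independent, so the interval is too narrow. Among the 284 genes with at least 10 wild-type peaks the median share was 15.4%, 44 genes were at 0, and 10 genes lay above Csf1. Seen from the mutant side, 64.3% of the Csf1 peaks were shared (9 of 14, interval 35.1 to 87.2%), against 61.8% of all mutant peaks.

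No peak overlapped the Csf1 start. The RefSeq promoter of Csf1 is shown here to place the nearest peaks against it, and that of Csf2 because the gene had no peak at all. The Csf1 window lies at chr3:107760420-107760719 and the Csf2 window at chr11:54249850-54250149 (GRCm38.p6), both on the minus strand and read 5′ to 3′ from 250 bp before the start to 50 bp after it. Capitals mark motif matches found on either strand.
Csf1: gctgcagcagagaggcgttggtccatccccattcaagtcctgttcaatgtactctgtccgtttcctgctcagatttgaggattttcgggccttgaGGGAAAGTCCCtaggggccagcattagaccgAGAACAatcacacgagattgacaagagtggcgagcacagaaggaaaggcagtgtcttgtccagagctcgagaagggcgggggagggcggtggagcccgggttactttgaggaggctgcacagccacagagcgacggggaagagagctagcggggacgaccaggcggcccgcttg
Csf2: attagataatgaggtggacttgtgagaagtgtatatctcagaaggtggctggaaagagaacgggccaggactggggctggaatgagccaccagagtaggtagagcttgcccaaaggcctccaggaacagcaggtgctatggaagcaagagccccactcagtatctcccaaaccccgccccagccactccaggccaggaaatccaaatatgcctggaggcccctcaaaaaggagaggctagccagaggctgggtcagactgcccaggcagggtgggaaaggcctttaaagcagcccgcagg
Promoters of 2 of the 3 genes were matched, and Csf3 was not.

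The first capital run of the Csf1 promoter is a match to the consensus of NF-kB, the factor family that LPS activates, in an 11-base form, and it starts 155 bp before the gene start. It also contains a match to the 10-base NF-kB consensus on the other strand, so the matches overlap. The 11-base form was added after the sequence had been seen. Of 32851 RefSeq promoters, 8.36% held the 11-base and 8.46% the 10-base form. The second run is a GR half-site (TGTTCT, or AGAACA on the other strand), which starts 124 bp before the start and which 19% of promoters held. Neither promoter held the full GR element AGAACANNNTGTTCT, found in 3 of all promoters (0.00913%), or the AP-1 motif TGANTCA, found in 7.81%. In the Csf2 window no match to any of these motifs was present. This window rests on the RefSeq start alone, since the peak lists gave no start for Csf2. At Csf3 the 2 sources differed, with 98700183 in RefSeq and 98701313 in the peak lists. Sequence outside the window was not searched, so motifs near another Csf2 start would be missed. A match describes letters in this window and does not show binding. No GR peak covered any base of either window.

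Within the gene, the mix of Csf1 peak classes differed between stretches. The first 5 kb after the start held 3 mutant-specific and 3 shared peaks and no wild-type-specific one. The next 5 kb held 4 wild-type-specific peaks and no other class. Between 10 and 15 kb lay 6 peaks, 3 of the wild-type-specific class, 2 shared and 1 mutant-specific, and the last part of the gene, beyond 15 kb, held none. These stretches were marked off after the positions had been seen.

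Mutant-specific peaks were the nearest to the Csf1 start. Their centres lay 591, 1591, 3193 and 10527 bp into the gene, and the fifth lay past the gene end, 26065 bp from the start. The peak nearest to the start covers 107759778 to 107759977. Of these 5 peaks, 3 (60%) lay within 5 kb of the start, against 28.9% of all mutant-specific peaks. Their median distance was 3.19 kb, compared with 20.8 kb for the class. A lower median than the class was not particular to them. It was 10.5 against 42.3 kb for wild-type-specific and 14.7 against 37.2 kb for shared peaks of Csf1. With 5 peaks of 1 gene, these values were not tested.

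Shared peaks of Csf1 lay on both sides of its start. In the gene their centres stood at 2575, 3537, 4425, 12329 and 14735 bp, and 1 lay past the gene end at 26997 bp. Upstream they lay at 15721, 33155 and 36237 bp. The nearest to the start covers 107757795 to 107757994. Of the 9 shared peaks, 33.3% were within 5 kb of the start, against 22% of the class.

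Wild-type-specific peaks kept farther from the start inside the gene. Going in from the start, the centres were at 5055, 5507, 6051, 7253, 10115, 10917 and 13363 bp. A further peak lay past the gene end at 27769 bp, and 4 lay upstream at 3383, 14533, 41101 and 42221 bp. The upstream peak at 3383 bp (107763753 to 107763952) was the single one of 12 within 5 kb of the start (8.33%, against 17.1% of the class). The next nearest, at 5055 bp, lay just past this limit, so the share depends on where the limit is set. All 4 peaks of the outermost stretch, beyond 20 kb upstream, were in the wild-type list, 2 of them shared.

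**Figure D2:**
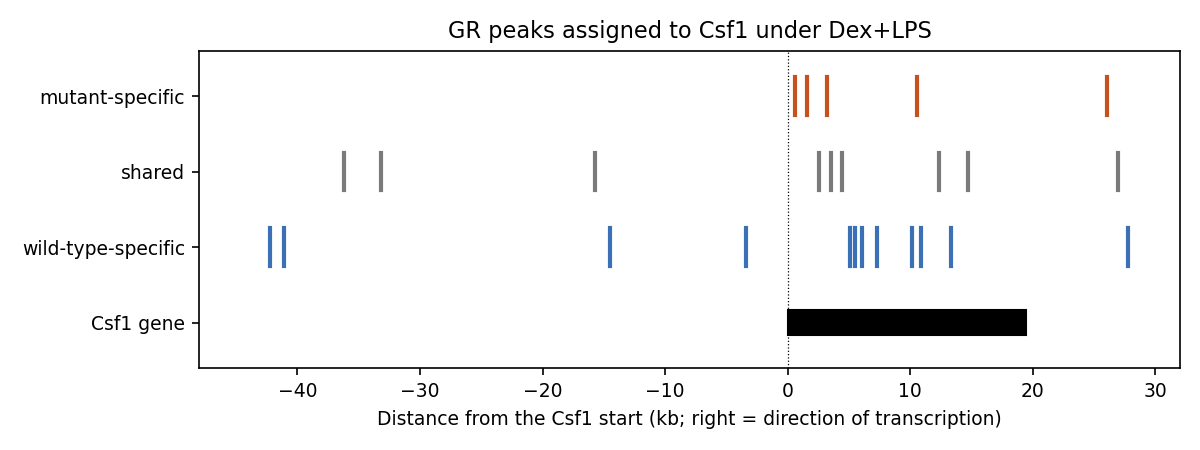
Peaks assigned to Csf1 under Dex+LPS, 1 line per peak centre, by distance from the gene start in kb (horizontal, right being the direction of transcription) and by class (rows), with the gene body as a black bar. The first 5 kb of the gene hold 3 mutant-specific and 3 shared peaks, and the next 5 kb hold 4 wild-type-specific peaks.

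The peaks of Csf1 were packed closely. Of 26 peaks, 16 lay inside the gene (61.5%, against 47.0% of all peaks), which is 0.824 peaks per kb of gene body. Among the 548 genes with at least 5 inside peaks, the median was 0.0374 per kb and 7 genes exceeded Csf1. The limit of 5 peaks favours long genes, and gene length was not matched, so the distance from the median partly reflects length. Neighbouring peaks inside the gene were separated by 144 to 2662 bp, with a median gap of 687 bp.

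Many class-specific peaks at Csf1 had a peak of the other genotype close by. Of the 5 mutant-specific peaks, 4 lay within 1 kb of a wild-type peak (80%, against 19.4% of all mutant-specific peaks). The gaps were 144, 190, 732, 784 and 1783 bp. Of the 12 wild-type-specific peaks, 7 lay within 1 kb of a mutant peak (58.3%, against 3.82%). Where peaks are this dense, a near neighbour of either class is more frequent, and its part in these shares was not tested. At Csf1 a class-specific peak thus often had a deposited peak of the other genotype in the same kilobase.

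Joined across gaps of at most 1 kb, the 26 peaks formed 11 regions. The largest ran for 5.66 kb, from 0.492 to 6.15 kb into the gene (107754319 to 107759977), and held 9 peaks, 3 of each class. Of the 22370 regions formed in this way from all peaks, 3 held 9 peaks and none held more. Of the 11 Csf1 regions, 8 held peaks of both genotypes, 3 held wild-type peaks alone and 0 held mutant peaks alone. Among regions with a wild-type peak, 72.7% also had a mutant peak at Csf1 and 17.3% over all peaks. Over all peaks, 1490 of 5107 regions with a mutant peak had no wild-type peak. The 3 wild-type regions of Csf1 without a mutant peak were the upstream pair at 41101 and 42221 bp, the upstream peak at 3383 bp and the peak 7253 bp into the gene.

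The genes whose class counts came closest to those of Csf1 were Immp2l (14 peaks of the wild-type class, 9 of the shared and 3 of the mutant class) and Tm4sf1 (12, 10 and 2), each with a summed difference of 4 peaks over the 3 classes. Irf2bp2 (11, 8 and 1) and Prl2c2 (14, 5 and 5) followed with a difference of 6. Btg1 (8, 7 and 4) differed by 7, as did 4 other genes that came later in the alphabet.

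Csf3 (chromosome 11, 98701313 to 98703629, plus strand, 2.32 kb) had its single peak right before the gene. The wild-type-specific peak covers 98700961 to 98701160, and its centre lies 253 bp upstream of the start. In the RefSeq gene table Csf3 begins at 98700183, so with that longer model the peak lies inside the gene. It also lies inside the long non-coding gene Gm38985 (98695980 to 98701510), to which the authors' annotation assigned no peak. The nearest peak of the mutant list was 498.2 kb from Csf3, a shared peak assigned to Cdk12 (98202869 to 98203068). Within 100 kb of the gene lay 9 peaks, all of them wild-type-specific. Most peaks were of this class (18953 of 24673), so a run of it cannot be read as a trait of this locus. The 9 peaks included 4 of Nr1d1, a circadian repressor gene, and 1 each of Med24, a Mediator subunit gene, and Thra, a thyroid hormone receptor gene.

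Csf2 (chromosome 11, 54247270 to 54249899, 2.63 kb) lay in a peak-free stretch of 158.1 kb, from 54224657 to 54382784. Its neighbour Il3, the gene of another myeloid growth factor, lies in the same stretch and had no peak either. The nearest peak was a shared one 22.6 kb past the gene end (54224458 to 54224657), assigned to the non-coding gene 4933405E24Rik. On the upstream side the nearest peak was 132.9 kb away. Within 100 kb lay 3 shared and 2 wild-type-specific peaks, all on the downstream side and none assigned to Csf2. Chromosome 11 as a whole was not poor in peaks, with 10.2 peaks per Mb of the wild-type class, 2.14 of the shared and 1.92 of the mutant class, against 6.92, 1.18 and 0.663 on chromosome 3, where Csf1 lies. Lengths of other peak-free stretches were not computed, so the one around Csf2 is not shown to be unusually long.

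**Figure D3:**
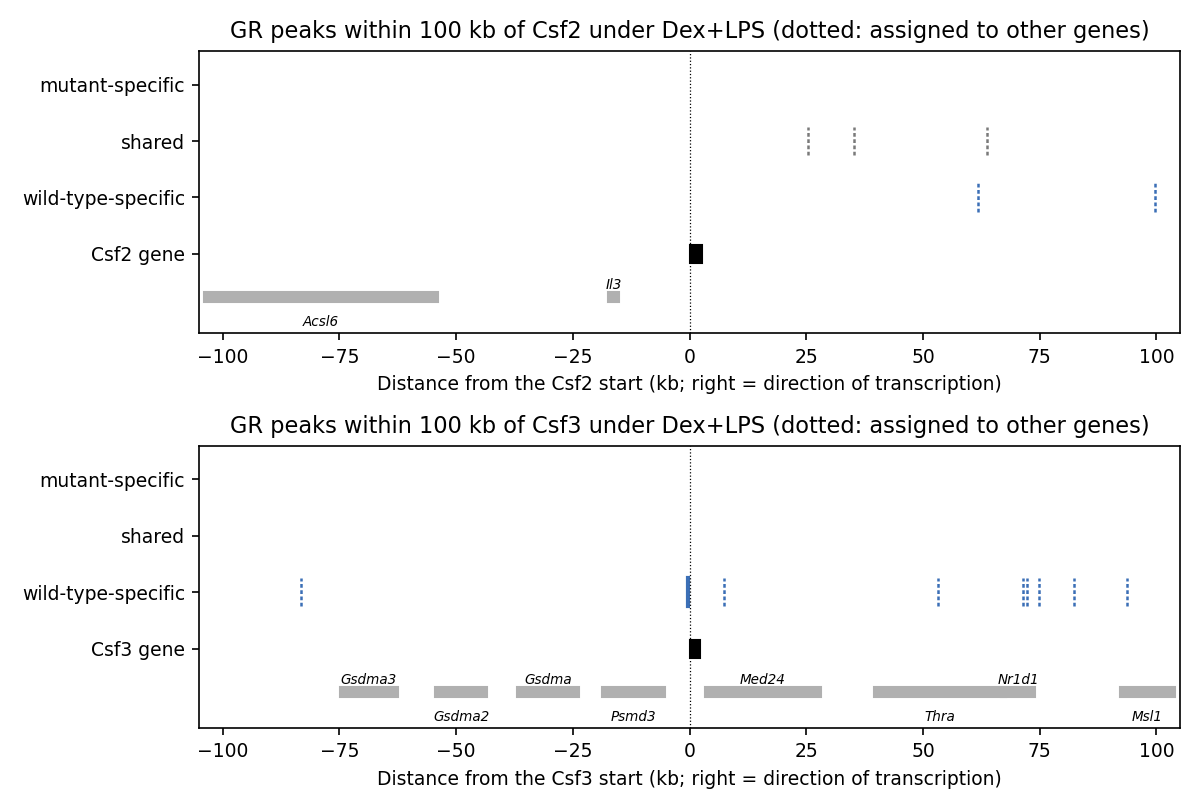
Peaks under Dex+LPS within 100 kb of Csf2 (top) and Csf3 (bottom), by distance from the gene start in kb (horizontal, right being the direction of transcription) and by class (rows). The black bar is the gene, grey bars are protein-coding neighbours, a solid line is a peak assigned to the gene and dotted lines are peaks assigned to others. The 1 peak assigned to Csf3 lies at its start, and the 5 peaks near Csf2 all lie past its end.

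Under Dex alone no library had a peak at any of the 3 genes. The wild-type libraries held 412 (replicate 1) and 854 peaks (replicate 2), and the mutant libraries 53 and 60. With lists this short few genes were bound, namely 1.09% and 1.86% of protein-coding genes in the wild-type libraries and 0.142% and 0.183% in the mutant libraries. No comparison of genotypes was possible at these genes, since all 4 libraries were at 0. The nearest Dex peaks to Csf1 lay 26.1 and 5.52 Mb away in the wild-type libraries, and neither mutant library had a peak on chromosome 3. For Csf3 the nearest peak was 1.18 Mb away in each wild-type library and 8.49 Mb away in each mutant library. Around Csf2 the nearest was 1.96 and 1.42 Mb away in the wild-type and 19.6 and 13.9 Mb in the mutant libraries. Csf1 thus had 26 peaks in the merged Dex+LPS lists and 0 in every Dex list. The data types differ in merging, peak width and number of libraries, so the effect of LPS cannot be told apart from these.

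Of 5 other ligand genes of the pathway, 2 had a peak, a number too small to set against the 30.6% of all protein-coding genes. Il34, which encodes the other ligand of Csf1r, had 6 wild-type-specific peaks, all inside the gene and between 2694 and 25512 bp from its start. Kitl, the ligand of the receptor Kit, had 3. Il3, Il5 and Flt3l had none. Neither Il34 nor Kitl had a shared or mutant-specific peak. Most protein-coding genes lacked both classes, with a shared peak at 9.37% and a mutant-specific one at 5.36%. The difference from Csf1 is thus not a result about these ligands.

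Of 8 receptor genes, 3 had a peak, each with 1 wild-type-specific peak and none in the mutant list. With 8 genes this is near the 30.6% of all protein-coding genes with a wild-type-specific peak and the 9.37% with a shared one, so it is not a result about receptors. The 3 genes were Csf2ra, the alpha chain of the GM-CSF receptor, with a peak inside the gene 1028 bp from its start, Il3ra and Kit. Csf1r, Csf2rb, Csf2rb2, Csf3r and Flt3, whose products are receptors of myeloid and stem cells, had no peak. Il3ra was the pathway gene with Dex peaks, 1 in each wild-type library. These lay 85667 and 86032 bp from its start, past the gene end, and its Dex+LPS peak lay at 87377 bp.

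Signalling genes were bound at 9 of 14, and 4 of the 14 had a peak in the mutant list, while no share over all protein-coding genes was computed for either. All 9 had a peak specific to wild-type cells, against 30.6% of all protein-coding genes. Shared peaks occurred at 3 of the 14, against 9.37%, and mutant-specific ones at 2, against 5.36%. These differences were not tested, and 14 chosen genes are too few for a result about signalling genes. Pik3r1, a regulatory subunit of PI3 kinase, had 10 wild-type-specific peaks and 1 shared. Lyn, a Src family kinase, had 7 peaks, of which 5 were wild-type-specific, 1 was shared and the last was mutant-specific. Jak1 had 4 wild-type-specific peaks, Jak2 had 1 wild-type-specific and 1 mutant-specific peak, and Stat5a and Stat5b, transcription factors activated by these receptors, had none.

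All 5 feedback inhibitors were bound in wild-type cells, while no share over all protein-coding genes was computed for the wild-type list. Peaks specific to wild-type cells lay at 4 of them, against 30.6% of all protein-coding genes. With 5 genes this cannot be read as a property of feedback inhibitors. Socs3, which damps signalling from the G-CSF receptor, had 12 peaks, 6 of them wild-type-specific, 2 mutant-specific and 4 shared. A shared peak (chromosome 11, 117969026 to 117969225) lay 240 bp inside its start. Its mutant-specific peaks lay inside the gene too, at 2202 and 2902 bp. Dusp1, a MAP kinase phosphatase, had 11 peaks, none of which was in the mutant list. Of the 284 genes with at least 10 wild-type peaks, 44 likewise had no shared peak. Socs1 had 2 wild-type-specific peaks and 1 mutant-specific, Socs2 had 1 shared peak and Cish had 1 wild-type-specific peak.

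Most genes of transcription factors known to act at cytokine genes were bound in both genotypes. Of 19 genes, 18 had a wild-type and 17 a mutant peak, and 16 had a shared one. Wild-type-specific peaks lay at 12 of the 19, against 30.6% of all protein-coding genes, and mutant-specific ones at 8, against 5.36%. Over all protein-coding genes 9.37% had a shared peak, while no such share was computed for the wild-type or the mutant list. These 19 genes were chosen with earlier results known, and the difference was not tested. Counted as wild-type-specific, then shared, then mutant-specific, Jun had 9, 2 and 2 peaks, Nfkb1 had 6, 1 and 1, and Nfkbia, the NF-kB inhibitor, had 4, 2 and 1. At Irf1, 2 peaks were mutant-specific and 1 was shared. Runx1 had 22 peaks, 19 specific to wild-type cells and 3 shared. The 3 peaks of Fosl1 were all wild-type-specific, and Nfkb2 had no peak.

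Of the 51 pathway genes, 30 had a peak specific to wild-type cells, 12 one specific to the mutant and 21 a shared one, while 14 had none, and the shares of all protein-coding genes are the 30.6, 5.36 and 9.37% given above. Transcription factor genes made up 16 of the 21 with a shared peak and 8 of the 12 with a mutant-specific one. Ligand and receptor genes had neither class. The totals were not tested and cannot be read as a trait of the whole pathway. No pathway gene reached the 26 peaks of Csf1, Runx1 with 22 being the nearest. The largest number of mutant-specific peaks among them was 2, against 5 at Csf1. Gene length and distance to neighbours differ between these genes and set how many peaks are assigned to each, so the counts do not rank the strength of binding.

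**Figure D4:**
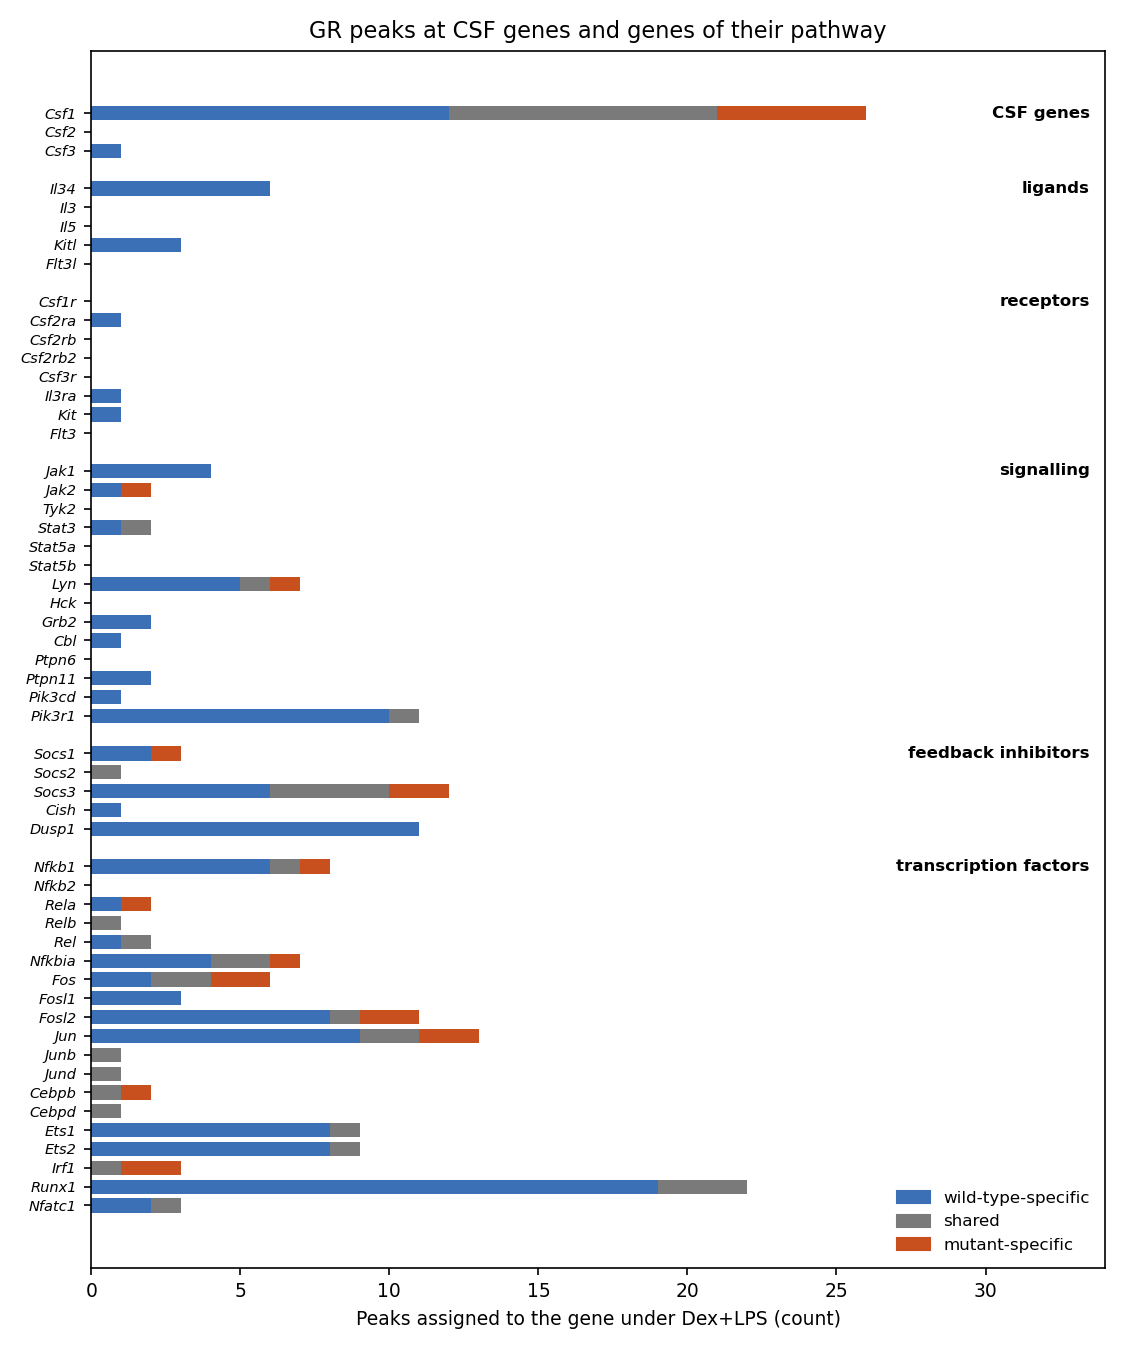
Number of peaks under Dex+LPS assigned to each of the 3 colony-stimulating factor genes and 51 genes of their pathway (horizontal bars, count), coloured by peak class and grouped by role. Csf1 has the longest bar, with 26 peaks, and 5 of the 8 receptor genes have none.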

How the data were processed

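The data were positions of glucocorticoid receptor peaks. Per the submitters' processing notes, BWA 0.7.13, Picard 1.119, MACS2 2.1.0 and the mouse build mm10 were used, with no role given for each. The file names state that Dex+LPS data were merged, that knockout peaks were taken out and that 3 classes were formed, while each Dex library kept its own list. The deposited values were base-pair positions, without any height, score or read number, so the depth is unknown and no peak could be weighted. The settings of the merging and of the gene annotation are not stated by labels or headers.

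Members were found by symbol in the authors' annotation. Distances run from the peak centre to the gene start, which held to within 1 bp for all 24673 Dex+LPS peaks. Of 8725 gene identifiers, 8717 (99.9%) matched a RefSeq gene table of GRCm38.p6, the assembly of mm10, and the background is its 21887 protein-coding genes. Intervals are exact (Clopper-Pearson) at 95% and cover counting error only. The exact permutation test planned for the Dex libraries was not run, because every library had 0 peaks at the members. Promoters (250 bp before to 50 bp after a start) came from RefSeq. No genome sequence was used here, so peak sequences were not analysed. The code was checked on simulated intervals and planted motifs, with bedtools 2.31.1 for comparison. Tables were handled in pandas 2.3.3 (Python 3.11.15, numpy 2.4.6), intervals came from scipy 1.17.1, and plots from matplotlib 3.10.9. The genes and gene lists were chosen with earlier results of these data known. Named genes are the 3 members, genes of the fixed pathway and marker lists, neighbours within 100 kb of a member and the 5 genes whose class counts came closest to those of Csf1. Cdk12 and Eps8l3 fall outside this rule and are named, after their values were seen, as the genes to which a peak near or nearest to a member was assigned. The alternatives were another gene assignment, a distance limit, joining of near peaks, leaving out a Dex library and, added after the data were seen, 2 others named in the closing section.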

Additional observations from a re-analysis of the deposited data

How the results depend on the processing

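No height, score or p-value of any peak was used here, so a stricter peak threshold could not be tried, and motifs in peaks were not searched for want of a genome sequence. Dex+LPS libraries could not be left out one by one, because their lists were merged. No paired analysis was possible because every Dex library had 0 peaks at the 3 genes. That count of 0 held with every Dex peak within 100 kb of a gene. It was also 0 for Dex peaks within 1 kb of a Dex+LPS peak of a member, which follows, since those peaks lay within 100 kb. Leaving out each Dex library in turn could only give 0 and is no check. Taking every peak within 100 kb of the gene body gave Csf2 2 wild-type-specific and 3 shared peaks in place of 0 and 0, and Csf3 9 wild-type-specific peaks in place of 1. At Csf1 the same change gave 18, 10 and 5 peaks and a shared share of 35.7%. Joining peaks of 1 class across gaps of at most 1 kb left 8, 7 and 4 and a share of 46.7%. Taking out class-specific peaks within 1 kb of a peak of the other genotype, a choice made after seeing the data, left 5 wild-type-specific and 1 mutant-specific peak at Csf1. With 1 mismatch allowed, also chosen after seeing the data, the Csf1 promoter had 4 matches to the GR half-site and the Csf2 promoter had 2, the Csf2 promoter also had 2 matches each to the AP-1 and both NF-kB forms, and neither had one to the full GR element. Of 49 alternatives in all, 37 left the value within 1.5 times or within its interval and 12 moved it. The 37 include settings that could not change the value. Examples are the 100 kb limit, as no assigned peak lay beyond 42.2 kb, and joining at genes with 0 or 1 peak. Leaving out a Dex library is another. The change from 12 to 18 wild-type-specific peaks at Csf1 was counted as unmoved, being at the limit of 1.5 times. The tally thus does not measure how stable the results are.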

Other observations

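Around Csf1, 6 of the 7 peaks assigned to other genes within 100 kb were wild-type-specific. With 18953 of all 24673 peaks in this class, that is not a trait of the locus. Between the outermost assigned peak and 100 kb upstream lay 4 more peaks, at 61.9, 68.1, 69.3 and 90.2 kb from the gene body, all wild-type-specific and assigned to Eps8l3. On the other side, 2 wild-type-specific peaks and 1 shared peak assigned to Ahcyl1 lay 34.6, 84.7 and 33.4 kb from the body. No mutant-specific peak lay within 100 kb of Csf1 other than the 5 assigned to it. All 26 Csf1 peaks also lie within Gm40121, a long non-coding gene of the RefSeq table (chromosome 3, 107696225 to 107812951), to which the authors' annotation assigned none.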
